A study of Homo sapiens with 15 samples.

Results

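Of the 14884 genes measured here in HEK293T cells, 27 carried the symbol of a nuclear-encoded respiratory chain or ATP synthase gene. They were picked by symbol alone, as subunit names of the NDUFA, NDUFB, NDUFC, NDUFS and NDUFV series with a number, SDHA to SDHD, names beginning UQCR or ATP5, the COX4 to COX8 subunit series, CYC1 and CYCS, without antisense genes and pseudogenes, and with the brightest probe set of each gene. The symbol rule used no measured difference, but the set was chosen with earlier results of these data known. Those that matched were 6 genes of complex III, 17 of complex IV, 3 of the ATP synthase and 1 noncoding transcript, NDUFA6-DT, which matched by its name and encodes no subunit. Structural subunits of complex I, the SDH genes of complex II and the cytochrome c gene CYCS had no named probe set and were not analysed here. The set is thus mainly one of complexes III and IV, and holds no subunit of complexes I and II. Of the 17 complex IV genes, 6 are isoforms known mainly from other tissues, which left 20 subunit and inhibitor genes of wide expression.

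HEK293T is a line derived from human embryonic kidney. Cells were transfected with siRNA against LOC550643 (a pool of 4, aimed at the gene of the P-body protein NoBody), Dcp2 (the mRNA decapping enzyme), DcpS (a scavenger enzyme that acts on caps after decay) or GAPDH (a glycolytic enzyme), or with a non-silencing siRNA, the reference. In all 5 groups actinomycin D, a blocker of transcription, was added 48 hours later at 1 ug per mL for 4 hours, to bring out mRNA decay. The submitters wrote that responses of transcription nonetheless outweighed decay, so a value here cannot be read as decay alone. Dcp2 was meant as a related control and DcpS and GAPDH as unrelated ones. Each group had 3 arrays, and in such bulk samples fewer cells of a state and less RNA per cell cannot be told apart. Nothing in the labels says whether these came from separate cultures, and the p-values therefore measure the spread between these arrays, which may be technical.

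The respiratory chain passes electrons from nutrients to oxygen through complexes of the inner mitochondrial membrane, and the proton gradient that it builds drives the ATP synthase. Complex III hands electrons to cytochrome c and complex IV passes them on to oxygen. Most subunits are encoded in the nucleus, a few in mitochondrial DNA. The subunit mRNAs are generally abundant and long-lived.

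The line and the knockdowns were checked first. Of the HEK293T marker list 4 of 7 genes were measured, with IRS4, LIN28B and VIM at mean log2 values of 8.90, 8.48 and 8.08 and PAX2 at 5.65. Of the 9 measured markers of blood cells, hepatocytes, fibroblasts and muscle, CD14, LYZ, ALB, DCN, LUM and MB lay between 2.39 and 3.50, below the median of all probe sets (4.01 to 4.08 by array). APOA1 was at 4.98, TTR at 5.31 and CD68 at 6.65. DCP2 was lowered to 28.7% of the reference by Dcp2 siRNA (limma adjusted p = 3.15e-06) and to 68.9% by DcpS siRNA (limma adjusted p = 0.0252), and GAPDH to 42.6% by its own siRNA (limma adjusted p = 2.70e-05). The knockdowns of LOC550643 and DCPS, genes without a named probe set, were not analysed here.

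A gene was called where its limma p, adjusted by Benjamini-Hochberg over all 14884 genes, was under 0.05. None of the 27 passed limma's moderated F test (0 of 27, with 2 at an unadjusted p under 0.05), where 12.2% of all genes did. Of all 14884 genes, 4096 had an unadjusted F test p under 0.05. The smallest adjusted p was 0.0981, for COX6A1. The median spread of the 27 within groups was an SD of 0.11 log2 units, against 0.15 over all genes, and the median distance between the highest and the lowest group mean was 0.21 against 0.27.

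No single comparison with the non-silencing siRNA called a member either. With LOC550643 siRNA 0 of 27 were called by limma (1 at an unadjusted p under 0.05), where 1.57% of all genes were called. With Dcp2 siRNA 0 of 27 were called (1 unadjusted), against 1.98% of all genes. With DcpS siRNA 0 of 27 were called (5 unadjusted), against 3.61%. With GAPDH siRNA 0 of 27 were called (2 unadjusted), against 2.0%. Over all genes the unadjusted share was 12.5%, 16.3%, 16.1% and 13.6% in the same order. The shares called are small, and at these rates a set of 27 would hold few calls. The 95% confidence intervals of the changes, each for 1 gene alone, had a median half-width of 0.21 log2 units for these genes. The interval lay wholly between -0.5 and 0.5 for 25, 25, 26 and 27 of the 27 genes with LOC550643, Dcp2, DcpS and GAPDH siRNA. Changes smaller than these intervals were not detectable with 3 arrays a group.

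**Figure D1:**
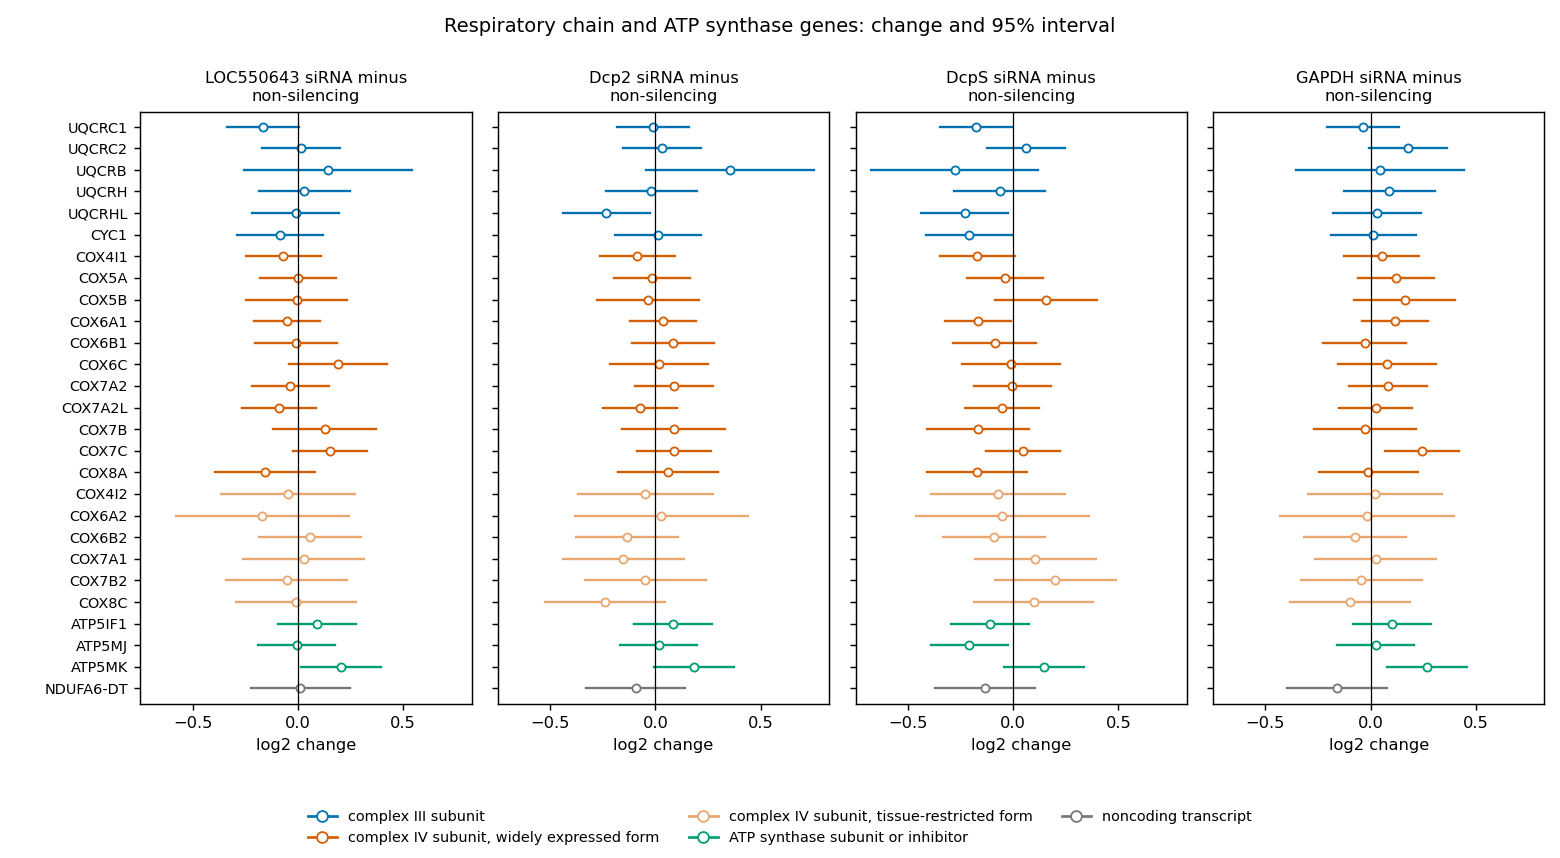
Log2 change of each of the 27 genes (rows) with each targeting siRNA against non-silencing siRNA (columns). Points are differences of group means (n = 3 arrays each) and lines are 95% confidence intervals of the limma fit, coloured by complex. All points are open, since 0 of 27 genes were called in each comparison.

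Within complex III, UQCRC1 and UQCRC2 encode the core proteins, CYC1 the cytochrome subunit that passes electrons to cytochrome c, UQCRH the hinge protein beside it and UQCRB a small subunit near the ubiquinone site. UQCRC1 was at 9.37, 9.25 and 9.26 log2 units on the non-silencing arrays, at 9.21, 9.11 and 9.06 with LOC550643 siRNA and at 9.15, 9.07 and 9.14 with DcpS siRNA. Both siRNA groups lay below the reference without overlap, but the log2 changes of -0.17 in each were not called (limma adjusted p = 0.415 and 0.299). With Dcp2 and GAPDH siRNA the change of UQCRC1 was -0.010 and -0.038. UQCRC2 was at 11.12, 10.93 and 11.14 in the reference and at 11.32, 11.26 and 11.14 with GAPDH siRNA, where the groups overlapped (log2 change 0.18, SE 0.09, limma adjusted p = 0.390).

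CYC1 was at 9.56, 9.57 and 9.72 on the non-silencing arrays and at 9.48, 9.51 and 9.22 on the DcpS arrays. All 3 DcpS arrays lay below all 3 of the reference, most clearly the third, and the log2 change of -0.21 (SE 0.10) was not called (limma adjusted p = 0.290). With LOC550643, Dcp2 and GAPDH siRNA the log2 changes of CYC1 were -0.086, 0.013 and 0.012.

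UQCRB varied most among the widely expressed genes, with a pooled SD within groups of 0.27. It was at 5.88, 5.92 and 5.85 with non-silencing, 6.24, 6.09 and 6.38 with Dcp2, and 5.005, 5.72 and 6.09 with DcpS siRNA. The DcpS arrays were spread over more than a log2 unit, with replicate 1 far below the others. The changes were 0.35 with Dcp2 siRNA (SE 0.19, limma adjusted p = 0.378) and -0.28 with DcpS siRNA, and the latter was 0.022 without DcpS replicate 1. Set directly against each other, Dcp2 minus DcpS was 0.63 (95% interval 0.23 to 1.03, limma adjusted p = 0.0615), just outside the threshold. Without DcpS replicate 1 it was 0.33 (limma adjusted p = 0.202), and without DcpS replicate 3 it was 0.87 and passed (adjusted p = 0.00756). It also passed among bright genes alone, where fewer genes are tested (limma adjusted p = 0.0317), and was at an adjusted p of 0.192 with only the 6 arrays fitted. Without DcpS replicate 3, which leaves the low replicate 1 in, LOC550643 minus DcpS also passed for UQCRB (0.66, limma adjusted p = 0.0282).

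UQCRH and UQCRHL are near-identical genes, the latter an intronless copy, so probes may read both and their separate values are uncertain. The UQCRHL probe set was at 9.64, 9.59 and 9.64 in the reference, 9.30, 9.29 and 9.58 with Dcp2 and 9.32, 9.34 and 9.52 with DcpS siRNA. Both siRNA groups lay below the reference without overlap, with log2 changes of -0.23 in each that were not called (limma adjusted p = 0.242 and 0.248). The UQCRH probe set had log2 changes of -0.020 and -0.064 in the same comparisons.

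Complex IV was represented by 11 widely expressed subunits. COX4I1 and COX5A sit next to the catalytic core that mitochondrial DNA encodes, COX6B1 faces the space between the membranes, and COX7A2L also joins complexes III and IV into supercomplexes. COX7C was at 8.005, 7.99 and 8.14 on the non-silencing arrays, 8.22, 8.15 and 8.23 with LOC550643 siRNA and 8.33, 8.29 and 8.24 with GAPDH siRNA. Both groups lay above the reference without overlap. The log2 change with GAPDH siRNA was 0.24 (SE 0.08, limma adjusted p = 0.175) and with LOC550643 siRNA 0.15 (limma adjusted p = 0.490), and neither was called. COX4I1 was at 10.91, 10.81 and 10.89 in the reference and at 10.72, 10.75 and 10.63 with DcpS siRNA, lower without overlap at a log2 change of -0.17 (limma adjusted p = 0.338).

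The other complex IV genes named by size of change were likewise not called. With LOC550643 siRNA COX6C had a log2 change of 0.19, COX7B of 0.13, COX8A of -0.16 and COX7A2L of -0.090. With Dcp2 siRNA COX7A2, COX7B and COX7C were at 0.088, 0.086 and 0.090. With DcpS siRNA COX5B was at 0.16, and with GAPDH siRNA COX5B and COX5A were at 0.16 and 0.12. The narrowest ranges of group means among the 11 were 0.11 log2 units for COX7A2L and 0.12 for COX7A2.

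The ATP synthase genes were ATP5IF1, which encodes the inhibitor that stops the enzyme from running backwards, and ATP5MJ and ATP5MK, which encode small membrane subunits. ATP5MK was at 6.66, 6.75 and 6.82 on the non-silencing arrays and at 6.99, 7.04 and 7.004 on the GAPDH arrays. It was also at 7.05, 6.87 and 6.91 with LOC550643, 6.78, 7.05 and 6.94 with Dcp2 and 6.82, 6.91 and 6.94 with DcpS siRNA. All 4 targeting groups thus had higher means than the reference, by 0.27 (GAPDH, limma adjusted p = 0.164), 0.20 (LOC550643, adjusted p = 0.351), 0.18 (Dcp2, adjusted p = 0.336) and 0.15 (DcpS, adjusted p = 0.470), and none was called. These 4 comparisons share the same 3 reference arrays. ATP5MJ was at 7.99, 8.11 and 7.96 in the reference and at 7.86, 7.75 and 7.84 with DcpS siRNA, lower without overlap (log2 change -0.21, limma adjusted p = 0.234). ATP5IF1 was at 8.53, 8.54 and 8.57 in the reference, 8.66, 8.60 and 8.68 with GAPDH and 8.59, 8.71 and 8.59 with Dcp2 siRNA, above it in both at log2 changes of 0.10 and 0.084.

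The isoforms of complex IV that are known mainly from muscle (COX6A2, COX7A1), testis (COX6B2, COX7B2, COX8C) or lung (COX4I2) were not called in any of the 10 comparisons. Mean log2 values were 2.92 for COX7B2, 2.98 for COX8C, 3.61 for COX7A1 and 3.83 for COX6A2, all under the median of all probe sets, and 5.22 for COX4I2 and 5.32 for COX6B2. The deposited table has no detection calls, so it cannot be said which of these transcripts were present. Against the reference the largest changes among them were COX8C with Dcp2 siRNA (-0.24), COX7B2 with DcpS siRNA (0.20), COX6A2 with LOC550643 siRNA (-0.17) and COX7A1 with Dcp2 siRNA (-0.15). Between targeting siRNAs COX8C reached -0.34 in Dcp2 against DcpS and COX7B2 -0.25 in LOC550643 against DcpS. COX6B2 differed by -0.14 with Dcp2 and -0.076 with GAPDH siRNA, COX7A1 and COX8C by 0.11 and 0.097 with DcpS siRNA, and COX8C and COX7B2 by -0.098 and -0.045 with GAPDH siRNA. The COX7B2 value with DcpS siRNA rested on replicate 1, at 3.51 beside 2.97 and 2.84, and was -0.00079 without it. COX8C was highest on DcpS replicate 2, at 3.44 beside 2.99 and 2.94, and its 0.097 was -0.062 without that array. The -0.34 of COX8C in Dcp2 against DcpS uses the same array. NDUFA6-DT, the noncoding member, was at -0.16 with GAPDH, -0.13 with DcpS and -0.094 with Dcp2 siRNA.

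Where the 3 arrays of a group lay wholly on one side of the 3 reference arrays, the count was 3 of 27 for LOC550643, 5 for Dcp2, 8 for DcpS and 4 for GAPDH siRNA. Over all genes the share was 17.0%, 22.8%, 18.5% and 17.3%. Of the 8 with DcpS siRNA, 7 were lower (UQCRC1, UQCRHL, CYC1, COX4I1, COX6A1, ATP5MJ and NDUFA6-DT) and ATP5MK was higher. The median log2 change of the 27 was -0.071 with DcpS siRNA and 0.025 with GAPDH siRNA, beside 0.0018 and 5.65e-05 over all genes. With LOC550643 and Dcp2 siRNA it was -0.0062 and 0.013, beside -0.0074 and 0.0013. Of the 20 widely expressed genes, 16 had a negative change with DcpS siRNA and 16 a positive one with GAPDH siRNA. The DcpS count became 13 after a further quantile normalization and without non-silencing replicate 3. The GAPDH count became 14 without GAPDH replicate 1 or 3, and 18 without GAPDH replicate 2. These are counts of direction only, with 0 called.

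The 6 direct comparisons between targeting siRNAs, which do not use the reference arrays, gave 1 call among the members, COX6A1 in DcpS against GAPDH siRNA. The other 5 gave 0 of 27 (1, 5, 1, 7 and 1 at an unadjusted p under 0.05 for LOC550643 against Dcp2, DcpS and GAPDH, and for Dcp2 against DcpS and GAPDH, by limma). The share of all genes called in those was 3.20%, 6.40%, 4.08%, 5.64% and 2.79%. At an unadjusted p under 0.05 by limma it was 16.1%, 18.9%, 16.9%, 19.2% and 15.8%. Arrays did not overlap for 4, 4, 5, 9 and 4 of the 27 members, where 22.4%, 21.9%, 21.6%, 24.0% and 21.6% of all genes did not. Of the 20 widely expressed genes, 10, 16, 4, 16 and 7 had a positive change in the same order. Their median log2 changes were -0.0044, 0.098, -0.095, 0.087 and -0.071, beside -0.011, -0.012, -0.0062, 0.0061 and -3.83e-06 over all genes.

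COX6A1 encodes the widely expressed form of a small complex IV subunit. It was at 12.24, 12.28 and 12.20 with DcpS siRNA and at 12.51, 12.50 and 12.56 with GAPDH siRNA, with 12.46, 12.36 and 12.41 in the reference, 12.31, 12.36 and 12.40 with LOC550643 and 12.42, 12.43 and 12.47 with Dcp2 siRNA. The DcpS arrays were the 3 lowest of all 15 and the GAPDH arrays the 3 highest. The log2 change between them was -0.28 (SE 0.07, 95% interval -0.44 to -0.13, limma adjusted p = 0.0317), so that the DcpS level was 82.2% of the GAPDH level. Against the reference the same gene was at -0.17 with DcpS (limma adjusted p = 0.271) and at 0.12 with GAPDH siRNA (adjusted p = 0.529). In this comparison 1 of 27 members was called, and 5.98% of all genes were.

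The COX6A1 call needed every array compared. It was lost without any 1 of the 6 arrays compared (changes -0.30 to -0.26, limma adjusted p 0.0537 to 0.0968), after a further quantile normalization (-0.22, adjusted p = 0.105), with only the 6 arrays fitted (adjusted p = 0.173) and with the mean of its probe sets (-0.23, adjusted p = 0.455). The gene had 2 named probe sets. The dimmer one had a mean of 3.91, below the median of all probe sets, with 3.73 ± 0.69 in DcpS and 3.92 ± 0.13 in GAPDH arrays (SD, n = 3 each), a change of -0.18 (limma adjusted p = 0.807 in the place of the brighter one).

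**Figure D2:**
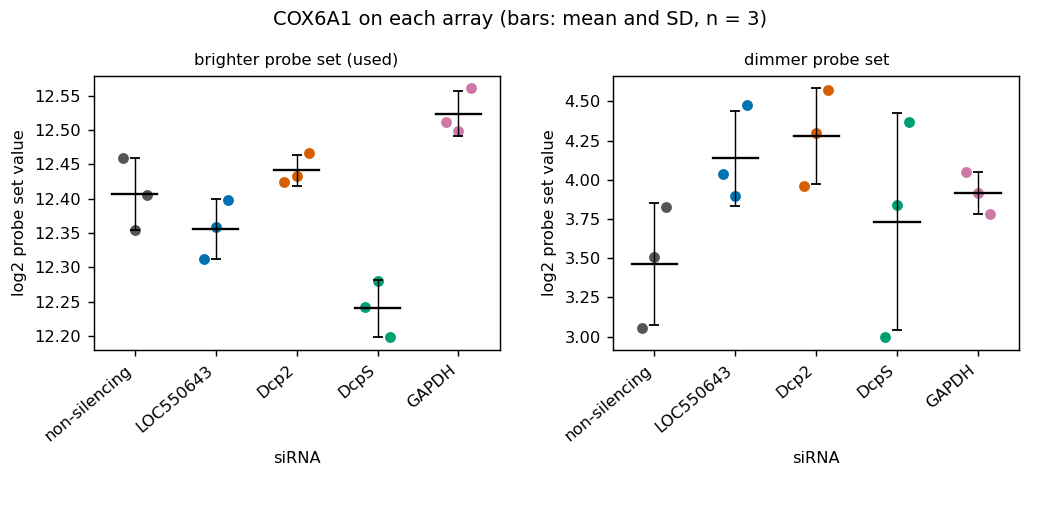
Log2 value of both COX6A1 probe sets on each of the 15 arrays, by siRNA, with the mean and SD of 3 arrays. On the brighter probe set the DcpS arrays (12.20 to 12.28) lie below and the GAPDH arrays (12.50 to 12.56) above all others; on the dimmer one the groups overlap.

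The other widely expressed genes leaned the same way in this comparison, and smaller leans were seen in others with DcpS or GAPDH siRNA. All 20 had a lower mean with DcpS than with GAPDH siRNA, with a median log2 change of -0.15, while 7485 of 14884 genes did so with a median of -0.0016. For 10 of the 20 the arrays did not overlap (21.0% of all genes): UQCRC1, UQCRHL, CYC1, COX4I1, COX5A, COX6A1, COX7C, ATP5IF1, ATP5MJ and ATP5MK. By limma 7 of the 20 were at an unadjusted p under 0.05, beside 18.4% of all genes. Only COX6A1 was called. The largest of the others were UQCRHL at -0.26 (limma adjusted p = 0.146), ATP5MJ at -0.23 (adjusted p = 0.142), CYC1 at -0.22 (adjusted p = 0.216), COX4I1 at -0.22 (adjusted p = 0.147), ATP5IF1 at -0.21 (adjusted p = 0.199) and COX7C at -0.20 (adjusted p = 0.202). UQCRB had a change of -0.32 (limma adjusted p = 0.403) that rested on DcpS replicate 1 and was -0.022 without it. COX5B was nearest to no change, at -0.0059. Among the 6 tissue-restricted isoforms, 3 were lower and 3 higher. The count of 20 became 19 after a further quantile normalization, without DcpS replicate 1, and without GAPDH replicate 1 or 3, and 19 of the 19 genes that passed the filter on dim genes were lower. It was chosen as a summary after the values had been seen, and genes of one array are not independent. Marker genes differed in the same comparison, in both directions. Of the 3 blood cell markers CD68 was at -1.31 (limma adjusted p = 5.36e-06), with CD14 and LYZ at 0.038 and 0.13, not called. Of the 4 HEK293T markers LIN28B was at -0.56 (limma adjusted p = 0.00270) and VIM at -0.59 (adjusted p = 0.0331), with PAX2 at -0.13 and IRS4 at 0.15, not called. Summed log2 values of the 3 blood cell markers were 12.8 to 12.9 on the DcpS and 13.9 to 14.1 on the GAPDH arrays, with CD14 and LYZ among the dim genes above. Those of the 4 HEK293T markers were 29.9 to 30.6 and 31.2 to 32.0. The part of these in the lean of the respiratory genes was not tested.

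**Figure D3:**
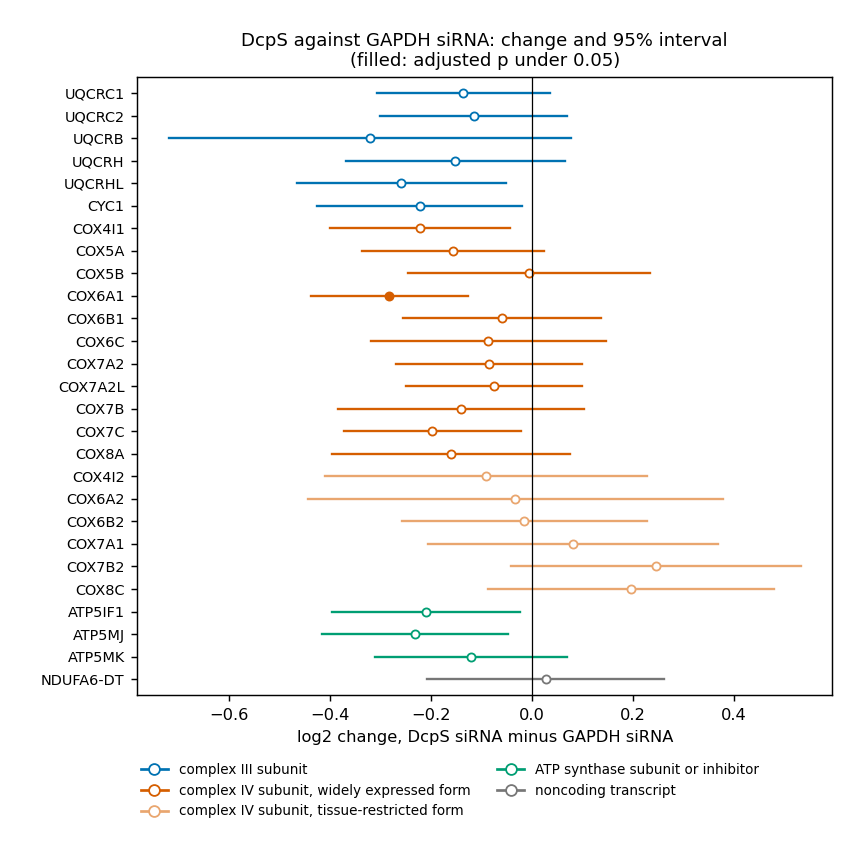
Log2 change of each of the 27 genes, DcpS minus GAPDH siRNA, with its 95% confidence interval, coloured by complex. Only COX6A1 (filled) was called, at -0.28; all 20 widely expressed subunit and inhibitor genes lie left of 0.

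The same values were also averaged by array, which is no separate evidence of the lean. The mean deviation of the 20 genes from their own 15-array means was -0.14, -0.12 and -0.021 log2 units on DcpS replicates 1, 2 and 3, and 0.097, 0.048 and 0.061 on the GAPDH arrays. The reference arrays were at -0.017, -0.035 and 0.030, the LOC550643 arrays at -0.0017, -0.028 and 0.048 and the Dcp2 arrays at -0.0058, 0.00020 and 0.083. DcpS replicate 3 thus lay within the range of the reference arrays, whereas replicates 1 and 2 lay below every other array. In group means the complex III genes were at -0.13 ± 0.074 with DcpS and 0.070 ± 0.041 with GAPDH siRNA, the ATP synthase genes at -0.11 ± 0.061 and 0.078 ± 0.039, and the 11 complex IV genes at -0.068 ± 0.070 and 0.065 ± 0.036 (SD, n = 3 each). The complex IV genes were at 0.013 on DcpS replicate 3, above their mean. Another 8488 genes at least as bright on average as the dimmest of the 20 had mean deviations between -0.035 and 0.042 on the 15 arrays, with -0.0067, -0.0080 and 0.0067 on the DcpS and -0.016, 0.0024 and -0.035 on the GAPDH arrays. RMA's quantile normalization holds the mean of so large a set near 0. These values therefore cannot show how far the mean of 20 genes would stray.

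**Figure D4:**
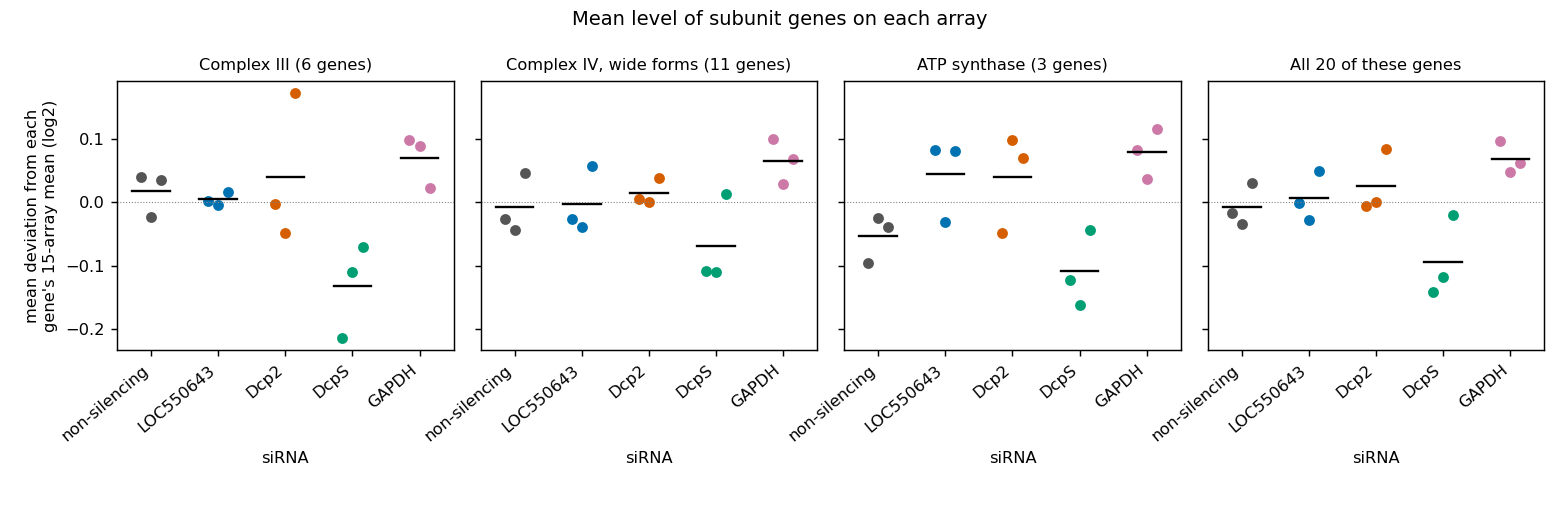
Mean deviation in log2 units from each gene's 15-array mean, per array (points) and group (black line), for complex III, the widely expressed subunits of complex IV, the ATP synthase genes and all 20 together. For the 20 genes the DcpS arrays lie between -0.14 and -0.021 and the GAPDH arrays between 0.048 and 0.097.

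Arrays of a group also differed along a shared axis, the first principal component of the deviations within groups, computed without the 27 genes. It held 24.7% of that variation. Within its group DcpS replicate 1 scored -13.9 and the other DcpS arrays 6.62 and 7.32. Non-silencing replicate 1 scored -14.6, and the GAPDH arrays scored -0.78, -11.3 and 12.1. Across the 15 arrays the correlation of single members with this axis within groups ranged from -0.74 (UQCRC1) to 0.76 (COX7B), with a median of 0.074. With differences between groups kept in, mean scores on this axis were 7.52 with Dcp2, 1.10 with LOC550643 and -0.24 with GAPDH siRNA. They were -2.75 with DcpS and -5.64 with non-silencing siRNA, and single arrays ranged from -20.2 to 11.8. As a covariate the axis, built from deviations within groups, cannot move a difference between groups, so its part in those differences was not tested.

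Promoter sequence was examined as a description of the members, with no test. Actinomycin D was present for 4 hours in all groups. RefSeq promoters (GRCh38.p14) were held for 21 of the 27 members, and the 250 bases before the annotated start were searched on both strands. A gene counted if any of its promoters held a match. The 27305 genes set beside the members were all those with a promoter, measured here or not, so the shares are of unlike sets. The motif of NRF1, a factor known for driving respiratory genes, was searched as GCGC, any 1 base and TGCGC, and was found in 3 of 21 members (14.3%, UQCRC1, ATP5MJ and COX8C) and in 6.20% of 27305 genes. The motif of ETS factors such as GABP, CCGGAAGN, was found in 6 of 21 (28.6%, COX6A1, COX5B, COX6B1, COX8A, UQCRH and ATP5MK) and in 10.2% of all. The YY1 motif AAGATGGC was found in 1 (NDUFA6-DT, 4.76% against 1.64%) and the TATA box TATAAA in 3 (COX6A2, COX7B and UQCRC2, 14.3% against 13.0%). The promoter of the called gene and those of the 2 widely expressed members with an NRF1 match are shown 5′ to 3′ on the strand of the gene, with the matched motif in capitals. The capitals mark an ETS match on the opposite strand in COX6A1 (chr12:120437863-120438112, plus strand) and an NRF1 match in ATP5MJ (chr14:103921530-103921779, minus strand) and UQCRC1 (chr3:48609647-48609896, minus strand).
COX6A1: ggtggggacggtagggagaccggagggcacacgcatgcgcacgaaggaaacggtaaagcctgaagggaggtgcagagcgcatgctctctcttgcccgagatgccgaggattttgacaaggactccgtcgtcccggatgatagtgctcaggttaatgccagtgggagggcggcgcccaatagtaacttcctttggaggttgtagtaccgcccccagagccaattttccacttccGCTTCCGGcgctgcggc
ATP5MJ: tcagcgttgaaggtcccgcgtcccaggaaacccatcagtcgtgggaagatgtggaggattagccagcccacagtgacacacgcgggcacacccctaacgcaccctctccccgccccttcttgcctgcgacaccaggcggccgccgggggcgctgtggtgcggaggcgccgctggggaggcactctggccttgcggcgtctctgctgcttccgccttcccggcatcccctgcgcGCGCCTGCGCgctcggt
UQCRC1: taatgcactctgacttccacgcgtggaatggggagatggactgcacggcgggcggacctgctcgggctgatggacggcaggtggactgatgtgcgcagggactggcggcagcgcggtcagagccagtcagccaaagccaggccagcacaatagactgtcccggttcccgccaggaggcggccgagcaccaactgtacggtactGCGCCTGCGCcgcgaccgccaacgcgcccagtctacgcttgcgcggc
In all 3 genes the match lies in the last part of the window, close to the annotated start. COX6A1, ATP5MJ and UQCRC1 were at -0.28, -0.23 and -0.14 in DcpS against GAPDH siRNA, and only COX6A1 was called. Among the other genes with an NRF1 or ETS match, COX8C (NRF1) was at 0.20 and COX5B (ETS) at -0.0059. COX6B1, COX8A, UQCRH and ATP5MK (ETS) also had negative changes. All 20 widely expressed genes had a negative change. A match is a description of letters and shows no binding, and its part in any change was not tested.

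Lists of genes that build or serve the respiratory chain held between 0 and 3 calls in each comparison with the reference, where 1.57%, 1.98%, 3.61% and 2.0% of all genes were called with LOC550643, Dcp2, DcpS and GAPDH siRNA and 12.5%, 16.3%, 16.1% and 13.6% were at an unadjusted p under 0.05. With lists this short, counts of 1 to 3 say little beyond the genes named. Of 42 measured assembly factors, 1 fell with LOC550643 siRNA, 2 fell with DcpS siRNA and 0 were called with Dcp2 or GAPDH siRNA (11 and 5 at an unadjusted p under 0.05 by limma), with medians between -0.0013 and 0.043. COX18, which inserts a core subunit of complex IV into the membrane, fell with LOC550643 siRNA from 7.22 ± 0.03 to 6.64 ± 0.14 (SD, n = 3 each), a log2 change of -0.58 (limma adjusted p = 0.00695). With DcpS siRNA UQCC2, a complex III assembly factor, changed by -0.53 (adjusted p = 0.0310) and COA5, a complex IV assembly factor, by -0.69 (adjusted p = 0.0402). Both were also called lower in DcpS against GAPDH siRNA, at -0.54 and -0.70, as were DMAC2 at -0.43 and COQ10A, of the coenzyme Q list, at -0.52. Called higher there were TOMM70 at 0.64, DLAT at 0.50, TIMM50 at 0.34 and VDAC1 at 0.28. These 6 further genes were named after their values were seen. The UQCC2 call against the reference needed DcpS array 2 and reference arrays 1 and 3 (limma adjusted p from 0.0530 to 0.129 when 1 was left out). The COA5 call needed DcpS arrays 2 and 3 and reference arrays 1 and 2 (0.102 to 0.151).

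Of 17 measured regulators of mitochondrial biogenesis and mitochondrial DNA expression, 1 rose with DcpS siRNA and 0 were called with LOC550643, Dcp2 or GAPDH siRNA (3, 4 and 4 at an unadjusted p under 0.05 by limma). The riser was LRPPRC, which stabilises mitochondrial mRNAs, at 0.34 (limma adjusted p = 0.0491). It missed the threshold when DcpS array 1 or 3 or reference array 2 or 3 was left out (limma adjusted p from 0.108 to 0.166) and with the replicate block (0.0598). Of 14 measured genes of the tricarboxylic acid cycle and pyruvate use, CS, citrate synthase, fell with Dcp2 siRNA by 0.40 log2 units (limma adjusted p = 0.0293) and MPC1, a pyruvate carrier subunit, fell with DcpS siRNA by 0.49 (adjusted p = 0.0135). With LOC550643 and GAPDH siRNA 0 of these 14 were called (0 and 1 unadjusted, limma). CS missed it when any Dcp2 array or reference array 1 or 2 was left out (limma adjusted p from 0.0765 to 0.126), as did MPC1 for DcpS array 3 or reference array 1 (0.0617 to 0.0636).

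Of 30 measured genes of protein import and inner membrane organisation, 2 rose with Dcp2, 1 rose with DcpS, 1 rose and 2 fell with GAPDH and 1 fell with LOC550643 siRNA. TOMM22, the receptor at the centre of the outer membrane translocase, rose by 0.68 with GAPDH siRNA (limma adjusted p = 0.00653) and by 0.51 with Dcp2 siRNA (adjusted p = 0.0402). TOMM34, a cytosolic import factor, rose by 0.47 with DcpS (adjusted p = 0.0100) and 0.39 with Dcp2 siRNA (adjusted p = 0.0446). The import receptor gene TOMM70 changed by -0.40 and TIMM50, of the inner membrane translocase, by -0.38 with GAPDH siRNA (adjusted p = 0.0369 for both). The channel gene TOMM40 changed by -0.48 with LOC550643 siRNA (adjusted p = 0.0128). TOMM22 with Dcp2 siRNA and TOMM70 and TIMM50 with GAPDH siRNA needed each of their 6 arrays (limma adjusted p from 0.0534 to 0.143 with 1 left out). TOMM34 with Dcp2 siRNA needed all Dcp2 arrays and reference arrays 1 and 2 (0.113 to 0.162), and also missed the threshold after quantile normalization (0.0532). With DcpS siRNA TOMM34 needed reference array 2 (0.0568). TOMM40 needed LOC550643 array 2 and reference array 1 (0.0659 to 0.0757), and was at -0.32 with the mean of its probe sets (limma adjusted p = 0.0974). TOMM70 was also lost with median centring (0.0539).

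Of 6 measured coenzyme Q synthesis genes 0 were called with LOC550643, Dcp2, DcpS or GAPDH siRNA (0, 3, 3 and 0 at an unadjusted p under 0.05 by limma). Of 4 measured carriers and kinases of ATP and phosphate, AK3, a matrix kinase, rose with GAPDH siRNA by 0.45 (limma adjusted p = 0.0402), and this was lost without any 1 of the 6 arrays (0.0753 to 0.144). Of 14 measured targets of the integrated stress response, which can follow mitochondrial defects, SESN2 rose with Dcp2 siRNA by 0.76 (limma adjusted p = 0.0241) and 0 were called with LOC550643, DcpS or GAPDH siRNA (1, 3 and 1 unadjusted). SESN2 needed Dcp2 arrays 1 and 3 and reference arrays 1 and 2 (limma adjusted p from 0.0737 to 0.111 with 1 left out). With only the 6 compared arrays fitted, every listed gene described here as called missed the threshold in its comparison with the reference (limma adjusted p 0.0519 to 0.192).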

How the data were processed

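Total RNA of 15 samples was measured on Affymetrix GeneChip arrays, 1 array each. The authors deposited log2 probe set values, the base being inferred from their range. Per the submitters' processing notes, RMA and the oligo package were used; a version, probe set definition or genome build is not given in the sources used here. RMA's quantile normalization hides a shift of all transcripts. Of 53617 probe sets 16098 had 1 gene in the platform table, 0 several and 37519 none, which gave 14884 genes by the brightest probe set of each (779 genes had several). Detection calls were not used. Precision is limited by the number of arrays.

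All 15 arrays entered 1 linear model with a mean per group (limma 3.58.1, R 4.3.3, and version 1.17.8 of data.table, 10 residual degrees of freedom). Two-sided p-values from limma's moderated tests were adjusted by Benjamini-Hochberg over 14884 genes within a comparison, and genes under 0.05 are those called. Levels of different probe sets were compared to pick the brightest of each gene, to select genes by brightness and to set values beside the median. Genes were not ranked by amount of RNA. The fit was tested on simulated data. Replicate numbers passed the check for pairing (every correlation of same-numbered deviations over 0.1) only in DcpS against non-silencing, with 0.39, 0.11 and 0.12. Figures used matplotlib 3.10.9.

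The members, lists, motifs and tests were chosen with earlier results of these data known. Named were all called members, the 5 most positive and 5 most negative members and CYC1 in each comparison with non-silencing, called members of direct comparisons, and up to 4 called genes of each list. Alternatives were a replicate block, median centring, a further quantile normalization, a filter that dropped dim genes, the mean of probe sets, the compared arrays alone, array weights, the array axis as a covariate and leaving out each array.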

Additional observations from a re-analysis of the deposited data

How the results depend on the processing

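The counts of 0 members called with LOC550643, Dcp2, DcpS and GAPDH siRNA against non-silencing stayed at 0 under all 8 other settings and without each array compared. The count of members in the F test, 0, became 1 with the filter on dim genes (COX6A1, limma adjusted p = 0.0398, where fewer genes are tested) and ranged from 0 to 1 when arrays were left out (UQCRB without DcpS replicate 3, adjusted p = 0.0253). The 1 member call of the direct comparisons became 0 after quantile normalization, with the mean of probe sets and with only the compared arrays, 2 with the replicate block and with the filter on dim genes, and 3 with the axis covariate, and ranged from 0 to 2 when arrays were left out; the cause was not tested. The axis covariate is built within groups, so it moves no change and only narrows the spread, and calls under it support no gene.

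Replicate numbers were shared by the groups, but same-numbered arrays deviated together (correlation over 0.1) in 9 of 30 pairs (-0.20 to 0.39). In 9 of 10 comparisons at least 1 of the 3 pairs fell short, and those numbers were not taken to pair the samples. In DcpS against non-silencing all 3 pairs passed; the block there left 0 members called and gave 595 calls over all genes in place of 538. The block gave 2 direct member calls in place of 1 (UQCRB in Dcp2 against DcpS, limma adjusted p = 0.0409) and put TOMM34 with Dcp2 siRNA at 0.0506.

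Small uncalled changes against non-silencing turned sign in places. CYC1 with Dcp2 siRNA was at -0.031 after quantile normalization and between -0.046 and 0.064 with arrays left out. With arrays left out, NDUFA6-DT with Dcp2 siRNA ranged from -0.18 to 0.048. With DcpS siRNA UQCRB ranged from -0.52 to 0.022, COX8C from -0.062 to 0.20 and COX7B2 from -0.00079 to 0.33. With GAPDH siRNA COX8C ranged from -0.16 to 0.0023, COX6B2 from -0.14 to 0.037, COX7B2 from -0.12 to 0.026, UQCRC1 from -0.060 to 6.03e-05 and CYC1 from -0.026 to 0.064. The cause was not tested. With 3 arrays a group, changes smaller than the half-widths of the 95% intervals could not be detected, and larger ones could go uncalled. Dim probe sets carry no detection call.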

Other observations

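Named probe sets that the symbol rule left out were also read. UQCRBP1, a pseudogene of UQCRB, had a mean of 3.43 log2 units and was at 3.35 ± 0.03 with DcpS and 3.65 ± 0.21 with GAPDH siRNA (SD, n = 3 each), a change of -0.30 (limma adjusted p over named probe sets = 0.231). NDUFB2-AS1, an antisense gene of a complex I subunit gene, had a mean of 6.07 and differed by -0.16, 0.12, -0.04 and 0.04 with LOC550643, Dcp2, DcpS and GAPDH siRNA. The dimmer probe set of COX6A1 was at 3.46 ± 0.39 in the reference and 4.28 ± 0.31 with Dcp2 siRNA (SD, n = 3 each), a change of 0.81 (limma adjusted p over named probe sets = 0.145) that the brighter one, at 0.04, did not share. The dimmer probe set of NDUFA6-DT had a mean of 4.10 and differed by -0.31 with GAPDH siRNA (limma adjusted p over named probe sets = 0.367), beside -0.16 on the brighter one. Among the 4 HEK293T markers, IRS4 fell by 1.18 log2 units with Dcp2 siRNA (limma adjusted p = 0.0307), with PAX2, LIN28B and VIM at 0.080, 0.060 and -0.038 there, and LIN28B fell by 0.46 with DcpS siRNA (adjusted p = 0.0153), with IRS4, VIM and PAX2 at -0.66, -0.20 and -0.027 there, not called. Of the 3 blood cell markers, CD68 rose with GAPDH siRNA by 1.10 (limma adjusted p = 3.60e-05) and with Dcp2 siRNA by 0.47 (adjusted p = 0.0349). CD14 was at 0.049 and -0.065 in these comparisons, not called, and LYZ was not called either.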
